A study of Mus musculus with 10 samples.

Results

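Translation initiation factor genes encode the proteins that load initiator tRNA and mRNA onto the small ribosomal subunit, find the start codon and join the large subunit. The genes described here are the protein-coding mouse genes whose symbol is Eif followed by a digit, with Eif4enif1 and Eif4e1b left out. The rule used names alone and took 53 of the 35501 genes to which the deposited transcripts could be assigned. Of these, 48 reached a mean of at least 1 TPM (a transcript level scaled by length and to a fixed total per library) and were tested among 11664 genes. The 5 genes below that level were Eif3f, Eif2ak2, Eif5a2, Eif2s3y and Eif4ebp3. Just inside the filter stood Eif2b5 and Eif3j1 at means of 1.13 and 1.14 TPM, and just outside it Eif3f and Eif2ak2 at 0.588 and 0.504 TPM.

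As background, eIF1, eIF1A, eIF3 and eIF5 assemble on the small ribosomal subunit together with eIF2, which carries initiator tRNA in its GTP-bound form. The mRNA is brought in by its cap, which eIF4E binds, through the scaffold eIF4G and the RNA helicase eIF4A. eIF2B exchanges the GDP on eIF2 for GTP, and kinases that phosphorylate eIF2 under stress block this exchange. Fully grown oocytes make almost no new mRNA, so the proteins needed for the meiotic divisions are translated from stored transcripts. The present values are levels of these transcripts and carry no measure of translation.

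The study profiled 10 single oocytes of ICR mice aged 6 to 8 weeks by Smart-seq2, a full-length method that copies polyadenylated RNA. All oocytes were taken from the ovary at the germinal vesicle stage, matured in M16 medium at 37 °C under 5% CO2 for 16 h and collected at metaphase II. Of these, 5 were controls and 5 were exposed for the 16 h to 0.1 µg/mL TubA, a name that the labels do not spell out. The labels name no vehicle, animal or culture, so each p-value reflects the spread among these libraries alone, part of which may be technical.

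Every library summed to 1000000 TPM, the sequencing depth is unknown, and between 10521 and 11698 genes per library reached 1 TPM. All 12 oocyte markers were tested and summed to between 27154 and 38311 TPM per control library and between 28872 and 38018 TPM per TubA library. The sums hide wide spreads of single markers. Zp2 ranged from 93.1 to 3256 TPM in the controls and from 206 to 4518 TPM under TubA. Figla ranged from 0 to 4.30 TPM in the controls and from 0.438 to 13.7 TPM under TubA. Cumulus and granulosa markers summed to 15.7 to 22.5 and 13.4 to 25.7 TPM, with 7 of 12 under 1 TPM in every library (Amh, Foxl2, Fshr, Hsd17b1, Inhba, Tnfaip6 and Wt1). Theca and stroma markers summed to 4.85 to 21.2 and 5.76 to 14.5 TPM with 5 of 9 under 1 TPM (Col1a1, Col1a2, Cyp17a1, Lum and Pdgfra). Blood, immune and endothelial markers summed to 30.7 to 79.9 and 41.9 to 82.8 TPM with 3 of 9 under 1 TPM (Cdh5, Lyz2 and Ptprc). None of the genes tested of these lists (12, 2, 2 and 6) passed the test for TubA (limma), and their part in the results below was not tested. By the correlations between their values the libraries fell into 2 sets that cross the treatment and that no label names. Set A held control replicates 1 to 3 and TubA replicates 1 and 2, and set B held control replicates 4 and 5 and TubA replicates 3 to 5. Results by set are descriptive, because the sets were found from the same values.

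The oocytes held initiation factor transcripts at levels that spanned several orders of magnitude, with some subunits of a single complex abundant and others scarce. Of the 53 genes, 15 had a mean of at least 100 TPM, 20 lay between 10 and 100 TPM, 13 between 1 and 10 TPM and 5 below 1 TPM. The median of the 48 genes tested was 36.3 TPM, against 11.8 TPM over all genes tested. At least 100 TPM was reached by 31.2% of the initiation factor genes tested and by 13.6% of all genes tested. The 5 with the highest mean levels were Eif5 (1576 TPM), Eif4a1 (742 TPM), Eif4e3 (669.7 TPM), Eif4a2 (536 TPM) and Eif4g2 (461 TPM). The order among neighbours is loose, since the libraries of Eif4a1 ranged from 195 to 1298 TPM and covered the whole range of Eif4e3, Eif4a2 and Eif4g2. The first place of Eif5 also depends on the transcript length used. Scaled to the length of the longest coding transcript, Eif5 had 401 TPM and rank 6 among the genes tested. The steadiest gene among those tested was Eif4e3, with a coefficient of variation of 10.1% over the 10 libraries of both groups, and the most variable were Eif1a (92.4%) and Eif3g (88.3%). Summed over all 53 genes, the level was 8072 ± 704 TPM in the controls and 7364 ± 609.5 TPM under TubA, a difference of -708 TPM with overlapping libraries (here and below, mean ± SD with n = 5 per group).

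**Figure D1:**
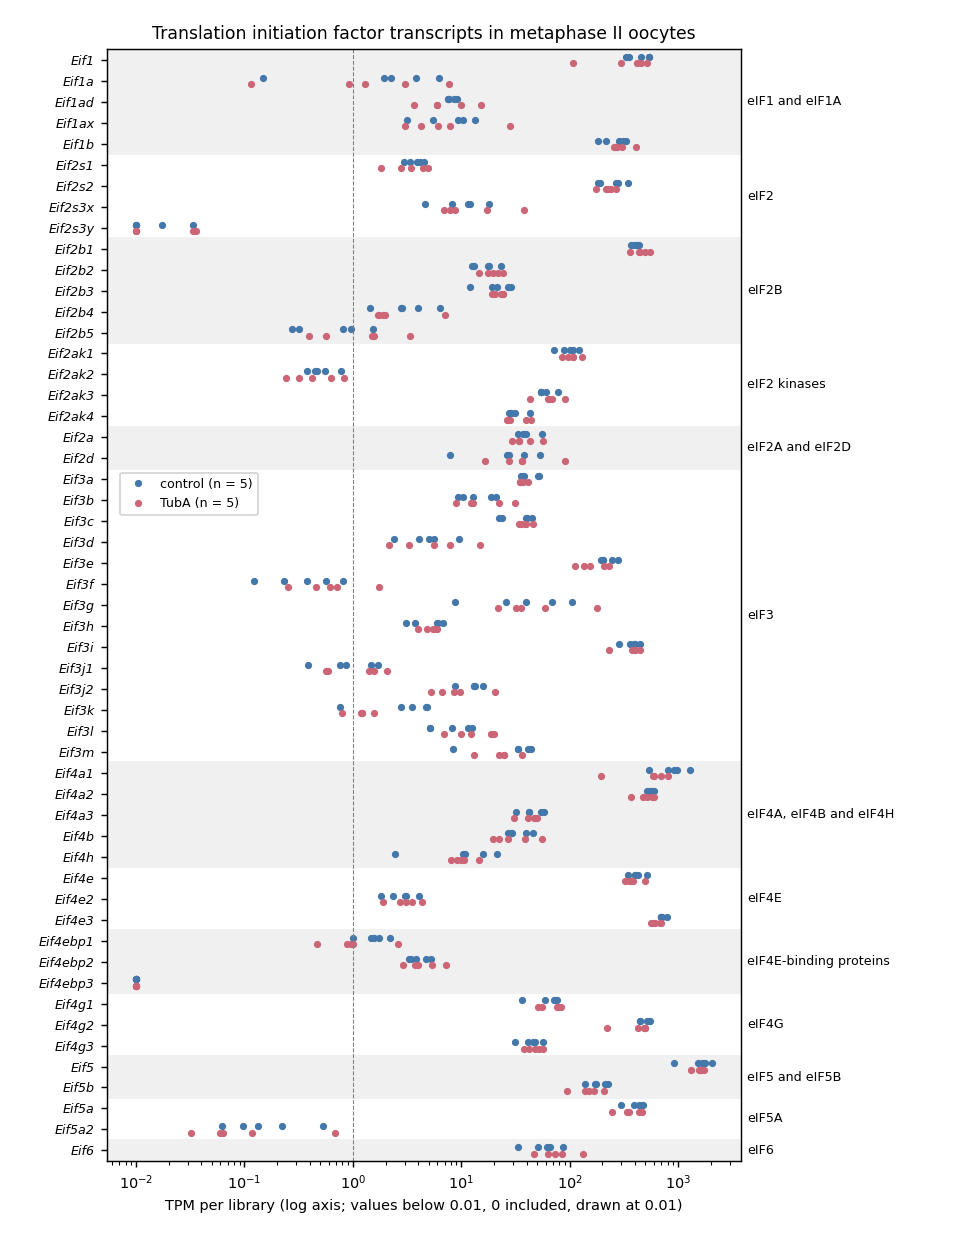
Levels of the 53 translation initiation factor genes, in TPM on a log axis, with 1 point per library (blue control, red TubA, 5 each), grouped by complex and with a dashed line at 1 TPM. Eif5 stands highest, 5 genes average below 1 TPM, and the points of both groups overlap in every gene tested.

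The sequence around the start sites was compared because the levels of these genes differ so widely. RefSeq promoter windows (250 bases before to 50 bases after a start, build GRCm38.p6) matched 42 of the 53 genes with 52 windows. The E-box CACGTG, a palindrome and hence the same on both strands, is the site read by MYC and related factors. It was present in a window of 10 of the 42 genes (23.8%) and in 11.5% of the 8660 tested genes with a window. By windows the shares were 23.1% for initiation factors, 9.69% for genes tested and 7.15% for all genes. The 42 genes include the untested Eif2ak2, Eif2s3y, Eif3f and Eif5a2, of which Eif3f and Eif5a2 hold the motif. Their shares are therefore not fully like those of genes tested. Genes with the motif stood at both ends of the range of levels: Eif4a1, Eif4e, Eif5a, Eif1b, Eif4g1, Eif3a, Eif4h, Eif3k, Eif3f and Eif5a2, in descending order from 742 TPM to less than 1 TPM. The windows of Eif4a1 (chr11:69672374-69672673, minus strand) and Eif4e (chr3:138527018-138527317, plus strand) are shown as abundant examples, and that of Eif5a2 (chr3:28781027-28781326, plus strand) as a scarce one. For Eif4e the window with the most E-boxes was picked, and its other window (chr3:138525941-138526240) has 0. Capitals mark the E-box, which begins at position -189 from the start in Eif4a1. In Eif4e the sites begin at -228 and -64, and in Eif5a2 at -142 and -117.
Eif4a1 promoter: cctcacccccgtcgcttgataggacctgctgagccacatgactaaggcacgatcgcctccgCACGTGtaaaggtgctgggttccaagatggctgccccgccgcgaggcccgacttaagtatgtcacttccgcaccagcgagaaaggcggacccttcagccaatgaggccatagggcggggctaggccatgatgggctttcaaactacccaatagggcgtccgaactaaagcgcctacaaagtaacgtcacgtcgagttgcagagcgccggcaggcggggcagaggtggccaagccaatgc
Eif4e promoter: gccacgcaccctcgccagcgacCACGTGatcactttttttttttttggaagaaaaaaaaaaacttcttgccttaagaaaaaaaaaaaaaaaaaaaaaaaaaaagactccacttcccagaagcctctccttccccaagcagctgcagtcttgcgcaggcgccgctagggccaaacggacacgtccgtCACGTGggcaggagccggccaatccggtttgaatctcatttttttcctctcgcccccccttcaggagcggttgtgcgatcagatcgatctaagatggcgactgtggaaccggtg
Eif5a2 promoter: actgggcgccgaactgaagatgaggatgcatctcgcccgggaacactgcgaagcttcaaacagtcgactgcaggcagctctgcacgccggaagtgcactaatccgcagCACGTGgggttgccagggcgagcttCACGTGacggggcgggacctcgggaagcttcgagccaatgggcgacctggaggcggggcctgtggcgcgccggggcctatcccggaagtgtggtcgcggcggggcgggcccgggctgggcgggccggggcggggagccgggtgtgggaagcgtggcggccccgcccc

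Other promoter motifs were searched on both strands, and among them the CCAAT box was rarer than in windows of genes tested. The GC box GGGCGG was in 69.2% of the 52 windows and in 60.2% of windows of genes tested, the CCAAT box in 26.9% and 38.7%, and TATAAA in 7.69% and 7.74%. The median number of CG pairs was 23.5 per window against 20 in genes tested. These matches describe the letters of the windows and were not tested.

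Stored oocyte mRNAs are known to be activated through the cytoplasmic polyadenylation element, which lies near the poly(A) signal and lets a dormant message regain its tail. TTTTAT, a common form of the element, was searched on the transcript strand in the last 100 bases of the transcript model with the highest mean TPM of each gene (GENCODE M21, build GRCm38). It was found in 7 of 48 initiation factor genes (14.6%), namely Eif1ax, Eif2d, Eif3j2, Eif3m, Eif4e3, Eif4g2 and Eif5b, against 13.0% of genes tested. Among genes of at least 100 TPM the shares were 20% (3 of 15) and 19.6%, and below 100 TPM 12.1% (4 of 33) and 12.0%. The form TTTTAAT was in 0 of 48 and in 4.86% of genes tested. The poly(A) signal AATAAA or ATTAAA was in 77.1% (37 of 48) and in 62.9%. Of the 7 genes with TTTTAT, Eif1ax and Eif3m had no such signal in the searched bases, and the Eif5b model is annotated as retaining an intron. The leading models of Eif5 and Eif4e also had no signal. Whether the model ends are true transcript ends was not checked. The sites of Eif4e3 and Eif4g2 are shown because these are among the most abundant genes, and that of Eif2d because its level varied most between libraries among the 3. Capitals mark the element in each 30-base window. The windows lie at chr6:99625215-99625244 (minus strand, element at -98 from the transcript end), chr7:111071956-111071985 (minus strand, element at -42) and chr1:131173368-131173397 (plus strand, element at -99).
Eif4e3 site: attttgagaaaaTTTTATttttgaacttta
Eif4g2 site: ttcatgccctgaTTTTATatacttgtatct
Eif2d site: gtgacagactcaTTTTATgcagtggacccc

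The central comparison asked whether TubA during maturation changed the level of these transcripts, and no initiation factor gene passed. Of 48 genes, 0 reached an adjusted p of 0.05 (limma on log2(TPM + 1), adjusted over 11664 genes, lowest adjusted p = 0.9999), where 1 gene (0.00857%) did over all genes tested. At an unadjusted p under 0.05 stood 1 initiation factor gene (2.08%), Eif3k, against 2.51% of all genes in either direction and 1.38% lower with TubA. In 0 of 48 genes were the libraries of both groups free of overlap, against 0.454% of all genes. The log2 difference was negative in 24 genes and positive in 24 (50%, against 48.6% negative over all genes), with a median of -0.013 beside 0.0097 over all genes. It ranged from -0.86 (Eif3k) to 0.61 (Eif3l). The precision was that of a median standard error of 0.27 log2 units (0.33 over all genes). For 33 genes (68.8%, against 57.0% of all genes) the 95% interval lay within 1 log2 unit either way, that is, inside a doubling or halving of TPM + 1. In the other 15 genes these libraries leave room for a larger difference. Within set A alone, 2 genes had an unadjusted p under 0.05 (Eif4a1 and Eif3e), against 4.44% of all genes, and 0 passed after adjustment, against 0.104%. Within set B alone the count was 0, against 1.72%. In a fit with the set as a covariate it was 2 (Eif3k and Eif3e), against 3.4%.

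**Figure D2:**
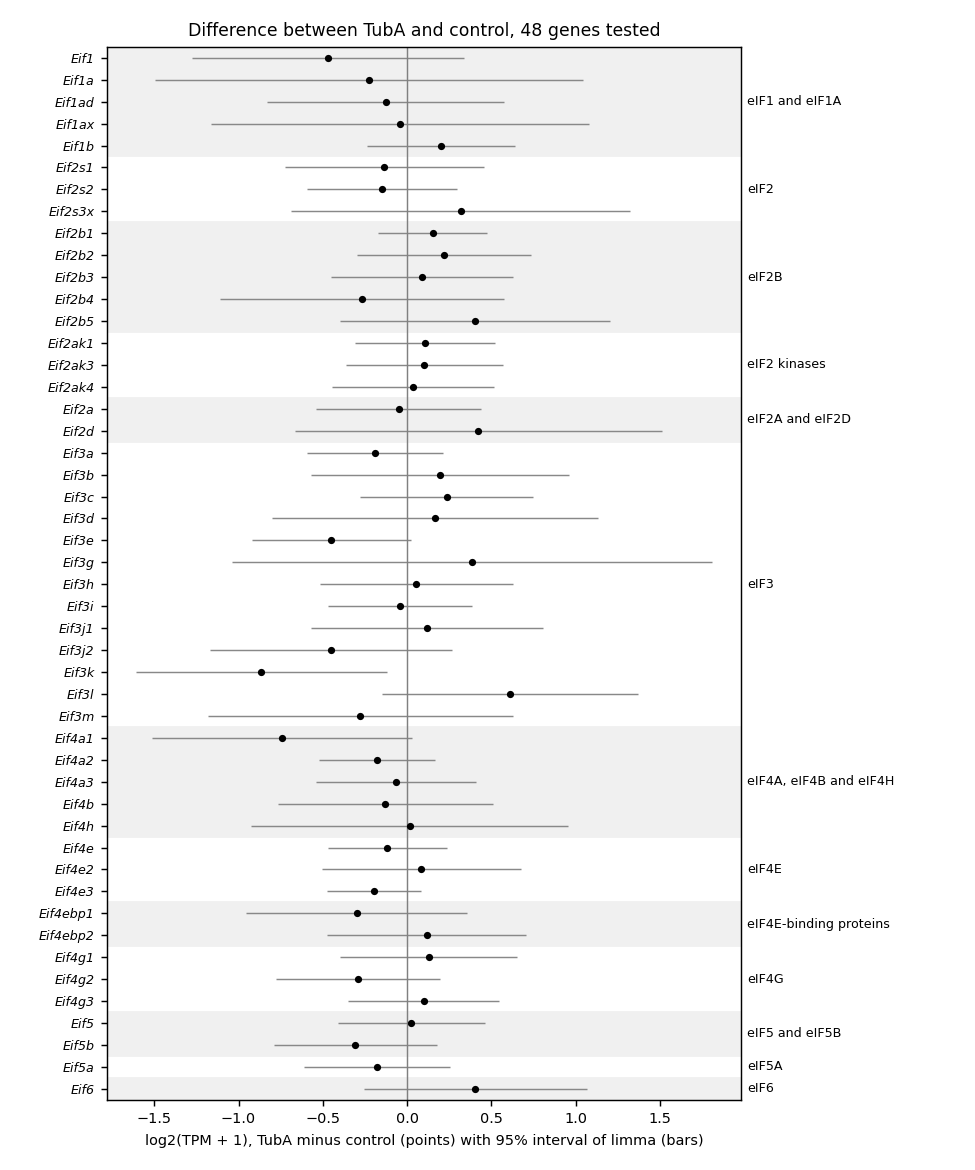
Difference between TubA and control for the 48 genes tested, as log2(TPM + 1) of TubA minus control (points) with the 95% interval of the limma fit (bars), grouped by complex. Only the interval of Eif3k, from -1.61 to -0.12, leaves out 0, and no gene passed after adjustment.

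eIF1 and eIF1A, the factors that keep the scanning ribosome open, were represented mainly by the eIF1 genes. Eif1 (chromosome 11, 100319885 to 100322096), which guards start codon choice, had 541, 458, 333, 354 and 543 TPM in the controls and 107, 452, 513, 297 and 419 TPM under TubA (values per library are listed in the order of replicates 1 to 5 throughout). TubA replicate 1 was the lowest library by a wide margin, and the other TubA libraries lay inside or just below the control range. The log2 difference was -0.47 (SE 0.37, unadjusted p = 0.23, limma) and -0.08 without that library. Its paralog Eif1b (chromosome 9, 120492232 to 120495330) had 218, 282, 183, 329 and 309.8 TPM in the controls and 256, 306, 407, 271 and 268 TPM under TubA, with a log2 difference of 0.20. The eIF1A genes were scarce. Eif1ax had 3.16, 9.25, 10.3, 13.3 and 5.47 TPM in the controls and 7.81, 3.04, 4.22, 28.3 and 6.12 TPM under TubA. Eif1a had 0.148, 3.84, 6.19, 1.94 and 2.24 TPM in the controls and 3.05, 0.114, 1.297, 7.71 and 0.918 TPM under TubA. Both were highest in TubA replicate 4 and spread widely within each group. Eif1ad averaged 8.11 ± 0.734 TPM in the controls and 8.15 ± 4.57 TPM under TubA, and it overlaps Banf1 (67.6 TPM) on the opposite strand by 428 exonic bases. Smart-seq2 keeps no strand, so reads in the bases shared by such a pair cannot be told apart. As a class, 4 of 5 genes had negative and 1 a positive difference, with a median of -0.13.

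Of the 3 subunits of eIF2, the carrier of initiator tRNA, the beta subunit was by far the most abundant transcript. Eif2s2 (chromosome 2, 154871410 to 154892935) had 191, 346, 181, 278 and 266 TPM in the controls and 224, 173, 239, 266 and 216 TPM under TubA (log2 difference -0.15, unadjusted p = 0.49, limma). Its groups overlapped over most of their range. The alpha subunit gene Eif2s1, whose product carries the site phosphorylated under stress, averaged 3.77 ± 0.613 TPM in the controls and 3.47 ± 1.23 TPM under TubA. The gamma subunit gene Eif2s3x, on the X chromosome, had 4.66, 12.01, 18.1, 11.5 and 8.18 TPM in the controls and 17.3, 6.88, 8.77, 37.8 and 7.88 TPM under TubA, highest in TubA replicate 4. Its Y-linked counterpart Eif2s3y was listed at 0.03595 TPM at most. The 3 tested differences lay between -0.15 and 0.32. That of Eif2s3x turned to -0.06 without TubA replicate 4 and to -0.32 without TubA replicates 1 and 4.

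The 5 subunits of eIF2B, the nucleotide exchange factor of eIF2, differed even more in level. Eif2b1 (chromosome 5, 124570213 to 124579131), the regulatory alpha subunit, had 436, 391, 369, 421 and 412 TPM in the controls and 551, 444, 490.3, 357 and 432 TPM under TubA. It was among the steadiest genes, with a coefficient of variation of 13.3% over the 10 libraries, and its log2 difference was 0.15 (95% interval -0.17 to 0.48, limma). Eif2b3 had 21.4, 11.99, 27.2, 19.4 and 28.7 TPM in the controls and 23.2, 24.5, 19.2, 24.2 and 20.6 TPM under TubA. The other 3 averaged 18.2 TPM for Eif2b2, 3.18 TPM for Eif2b4 and 1.13 TPM for Eif2b5, which encodes the catalytic epsilon subunit. Eif2b4 overlaps Snx17 (31.8 TPM) on the opposite strand by 204 exonic bases, so its low level is uncertain as far as it rests on reads there. In the class 4 of 5 differences were positive and 1 negative, with a median of 0.15.

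Among the eIF2 kinases, the heme-regulated kinase gene Eif2ak1 and the endoplasmic reticulum kinase gene Eif2ak3 were the highest. Eif2ak1 (chromosome 5, 143817788 to 143904251) had 102, 71.4, 123, 87.7 and 107 TPM in the controls and 107, 108, 96.9, 84.2 and 129 TPM under TubA. Eif2ak3 (chromosome 6, 70844515 to 70905245) had 60.6, 54.4, 78.1, 54.5 and 54.4 TPM in the controls and 62.7, 68.4, 90.7, 43.2 and 64.8 TPM under TubA. In both genes the groups overlapped over most of their range. The amino acid sensor gene Eif2ak4 averaged 31.9 ± 6.39 TPM in the controls and 33.003 ± 8.19 TPM under TubA, and Eif2ak2, encoding the kinase activated by double-stranded RNA, 0.521 ± 0.152 TPM in the controls and 0.487 ± 0.239 TPM under TubA, too low to be tested. The 3 tested differences were all positive and at most 0.11, with unadjusted p from 0.58 to 0.88 (limma).

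Eif2a and Eif2d encode factors that can deliver tRNA without eIF2. Eif2a had 39.2, 36.9, 55.4, 33.1 and 38.001 TPM in the controls and 57.1, 42.998, 33.996, 29.6 and 34.3 TPM under TubA, a log2 difference of -0.05. Eif2d, whose element is printed above, had 7.903, 27.5, 26.4, 52.9 and 38.03 TPM in the controls and 36.3, 16.6, 27.4, 90.9 and 36.1 TPM under TubA. TubA replicate 4 was the highest library of Eif2d and control replicate 1 the lowest, and the log2 difference of 0.42 had a standard error of 0.50. With single libraries left out it ran from 0.02 (without control replicate 1) to 0.69, and it was 0.09 without TubA replicate 4 and -0.03 without TubA replicates 1 and 4. Eif2d shares 78 exonic bases with Rassf5 (95.1 TPM) on the opposite strand.

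eIF3 is the largest initiation factor and the platform that holds the others on the small subunit. Its 14 genes ranged from 0.588 TPM (Eif3f, not tested) to 372 TPM (Eif3i), although their products are subunits of a common assembly. Eif3i (chromosome 4, 129591960 to 129600648) had 440.3, 391, 286, 362 and 399 TPM in the controls and 400.1, 442, 400.2, 232 and 373 TPM under TubA, and its log2 difference was -0.04. Eif3e (chromosome 15, 43250058 to 43282719) had 246, 279, 203, 201 and 193 TPM in the controls and 112, 135, 231, 154 and 208 TPM under TubA. TubA replicates 1, 2 and 4 lay below every control library of Eif3e and TubA replicates 3 and 5 among them. The log2 difference of Eif3e was -0.45 (SE 0.22, unadjusted p = 0.059, limma). It was -0.96 within set A and -0.01 within set B, and the difference between the sets had an unadjusted p = 0.022 (limma interaction, adjusted p = 0.99999). Of all genes, 3.35% had an unadjusted interaction p under 0.05 (limma). This p is descriptive, as the sets were taken from the same values.

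The 1 initiation factor gene at an unadjusted p under 0.05 was Eif3k (chromosome 7, 28971372 to 28981864), a peripheral eIF3 subunit gene of low level. Eif3k had 0.767, 4.69, 4.81, 3.48 and 2.78 TPM in the controls and 1.18, 0.793, 1.57, 1.21 and 1.22 TPM under TubA. Control replicates 2 to 5 lay above every TubA library, and control replicate 1 lay below all 5. The log2 difference was -0.86 (SE 0.34, unadjusted p = 0.026, adjusted p = 0.9999, limma). Within set A it was -0.97 and within set B -0.82. The unadjusted p was 0.065 when only protein-coding transcripts were summed, and 0.056, 0.069, 0.064 and 0.054 without TubA replicate 2 or control replicate 2, 3 or 4. Without control replicate 1 it was 0.0012. A filter at a mean of 5 TPM leaves the gene out.

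The remaining eIF3 genes are given by level. Means between 10 and 100 TPM were found for Eif3g (57.6 TPM), Eif3a (39.7 TPM), Eif3c (36.5 TPM), Eif3m (28.1 TPM), Eif3b (15.96 TPM), Eif3j2 (11.5 TPM) and Eif3l (11.1 TPM). Lower means were found for Eif3d (6.06 TPM), Eif3h (5.15 TPM) and Eif3j1 (1.14 TPM). Eif3a and Eif3b encode the core onto which the other subunits assemble. Eif3g was the least even, at 8.76, 67.96, 25.9, 106 and 39.3 TPM in the controls and 59.7, 21.6, 35.5, 179 and 32.3 TPM under TubA, a 20.4-fold range. Eif3l had the highest difference of all, at 8.51 ± 3.47 TPM in the controls and 13.6 ± 5.71 TPM under TubA (log2 difference 0.61, unadjusted p = 0.11, limma). Scaled to the length of the longest coding transcript, it was 0.24. Eif3j1 and Eif3j2 are near copies. Of the 31-base words of Eif3j1, 38.1% occur in Eif3j2, and of those of Eif3j2, 93.95% occur in Eif3j1, so how reads divide between them is uncertain. Eif3m shares 25.5% of its words with Gm7658 and overlaps Ccdc73 (82.4 TPM) on the opposite strand. Over the 13 tested genes, 6 differences were negative and 7 positive, with a median of 0.05.

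The helicase eIF4A unwinds the leader of the mRNA, and its genes Eif4a1 and Eif4a2 were both abundant. Eif4a1 (chromosome 11, 69666936 to 69672423) had 1298, 977, 916, 806 and 544 TPM in the controls and 195, 600.4, 692, 589 and 805 TPM under TubA. The 4 highest libraries were controls, TubA replicate 1 was the lowest of all, and control replicate 5 lay below every TubA library except TubA replicate 1. The log2 difference was -0.74 (SE 0.36, 95% interval -1.52 to 0.03, unadjusted p = 0.058, limma), and -0.39 without TubA replicate 1. Within set A it was -1.62, with every TubA library below every control library, and within set B 0.06, with overlap. The difference between the sets had an unadjusted p = 0.016 (limma interaction, adjusted p = 0.99999), where 3.35% of all genes had an unadjusted p under 0.05. As for Eif3e, this p is descriptive, since the sets were taken from the same values.

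Eif4a2 (chromosome 16, 23107444 to 23114136) had 589, 602, 568, 520.4 and 548 TPM in the controls and 579.6, 604, 471, 365 and 515 TPM under TubA. It was steadier than Eif4a1 in these libraries, with a coefficient of variation over the 10 of 13.8% beside 39.8%. Its log2 difference was -0.18. Eif4a3, whose product works in the exon junction complex, averaged 45.5 ± 10.3 TPM in the controls and 43.1 ± 7.77 TPM under TubA, and shares 20.6% of its words with Gm8994 and 22.5% with Gm5580. The helicase cofactor gene Eif4b averaged 34.1 ± 8.16 TPM in the controls and 32.7 ± 14.9 TPM under TubA. Eif4h, its relative, averaged 12.1 ± 6.997 TPM in the controls and 10.4 ± 2.44 TPM under TubA.

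Of the cap-binding proteins, Eif4e and Eif4e3 were abundant and Eif4e2 scarce. Eif4e3 (chromosome 6, 99625135 to 99666771), whose element is printed above, had 709, 692, 791, 689 and 693 TPM in the controls and 585, 608, 697, 559.7 and 674 TPM under TubA. Only TubA replicate 3 reached the control range, and the other 4 TubA libraries lay below every control library. The log2 difference was -0.20 (SE 0.13, unadjusted p = 0.15, adjusted p = 0.9999, limma), a small step in a gene whose libraries all lay within a 1.41-fold range. Eif4e (chromosome 3, 138526179 to 138559696), which encodes the classical cap-binding protein, had 514, 423, 400.4, 404 and 348 TPM in the controls and 387, 355, 326, 496 and 367 TPM under TubA. Its groups overlapped over nearly their whole range. Eif4e2 had 3.01, 2.36, 1.83, 4.097 and 3.097 TPM in the controls and 4.36, 1.89, 2.73, 3.52 and 3.08 TPM under TubA.

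The binding proteins that hold eIF4E back when MTOR is inactive were scarce as transcripts. Eif4ebp1 had 2.19, 1.47, 1.001, 1.74 and 1.56 TPM in the controls and 2.61, 1.007, 0.957, 0.467 and 0.886 TPM under TubA. Eif4ebp2 had 3.27, 3.44, 5.23, 3.83 and 4.72 TPM in the controls and 7.24, 5.404, 3.97, 3.76 and 2.93 TPM under TubA. Eif4ebp3 was listed at 0 in every library, and 66.4% of its words are shared with AC115631.1, which overlaps it on the same strand. The sum of the 3 was 5.69 ± 0.573 TPM in the controls and 5.85 ± 2.45 TPM under TubA, against 1136 ± 73.7 TPM in the controls and 1014 ± 41.7 TPM under TubA for the 3 eIF4E genes.

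The scaffold genes were led by Eif4g2, whose product lacks the binding site for eIF4E and serves cap-independent initiation. Eif4g2 (chromosome 7, 111067750 to 111083030) had 441, 513, 448, 539.6 and 555 TPM in the controls and 219, 426, 479.8, 498 and 491 TPM under TubA, with TubA replicate 1 far below the rest. The log2 difference was -0.29 (unadjusted p = 0.21, limma) and -0.07 without that library. Eif4g1 (chromosome 16, 20668313 to 20692884), the main cap-dependent scaffold, had 36.4, 71.2, 58.8, 75.01 and 75.9 TPM in the controls and 54.9, 50.996, 77.5, 83.3 and 75.6 TPM under TubA. Eif4g3 had 30.97, 40.9, 46.3, 47.5 and 56.5 TPM in the controls and 41.9, 37.8, 56.3, 48.04 and 52.3 TPM under TubA. The groups overlapped in all 3 genes.

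Late in initiation eIF5 triggers GTP hydrolysis on eIF2 and eIF5B joins the subunits. Eif5 (chromosome 12, 111538016 to 111546752), the highest of all 53 genes by TPM as deposited, had 1527, 2061, 920.1, 1654 and 1761 TPM in the controls and 1618, 1571, 1735, 1303 and 1607 TPM under TubA. The lowest and the highest library were both controls, and the log2 difference was 0.03 (95% interval -0.41 to 0.46, limma). Eif5b (chromosome 1, 37998010 to 38055579) had 176, 228, 137, 170.1 and 212 TPM in the controls and 94.7, 149.9, 207, 137 and 168 TPM under TubA, a log2 difference of -0.31 (unadjusted p = 0.19, limma) that was -0.15 without TubA replicate 1. Eif5a, which helps ribosomes past difficult peptide bonds, had 470.03, 396, 299.7, 462 and 433 TPM in the controls and 248, 337, 434, 469 and 353 TPM under TubA. Its paralog Eif5a2 stayed at 0.681 TPM or less in every library. Eif6, which keeps the large subunit from joining too early, had 33.6, 65.1, 50.6, 86.99 and 61.4 TPM in the controls and 84.8, 73.1, 63.6, 134 and 46.9 TPM under TubA, a log2 difference of 0.41 (0.20 without TubA replicate 4).

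A pair of TubA libraries stood at the edge of several of these genes. Among the 15 genes that average 100 TPM or more, TubA replicate 1 was the lowest of the 10 libraries in 6, namely Eif4a1, Eif4g2, Eif1, Eif5a, Eif3e and Eif5b. Over all genes tested of that level it was the lowest in 8.18%. It was the lowest in 0 of the 33 genes under 100 TPM, against 8.01% of all genes tested of that level, and the highest in 5 of them, against 12.1%. TubA replicate 4 was the highest library in 16 of these 33 genes, against 22.4% of all genes tested under 100 TPM, and in 0 of the 15 above, against 12.3%. It was the lowest in 4 of those 15, against 22.0%. It also had the most genes at or above 1 TPM, 11698. Control replicate 1, with the fewest at 10521, was the lowest library in 12 of the 48 genes, near its share of 23.4% over all genes tested. Without TubA replicate 1 the log2 difference of Eif3e was -0.32 in place of -0.45, and that of Eif5a -0.04 in place of -0.18. Without TubA replicate 4 that of Eif1ax was -0.50 in place of -0.04.

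**Figure D3:**
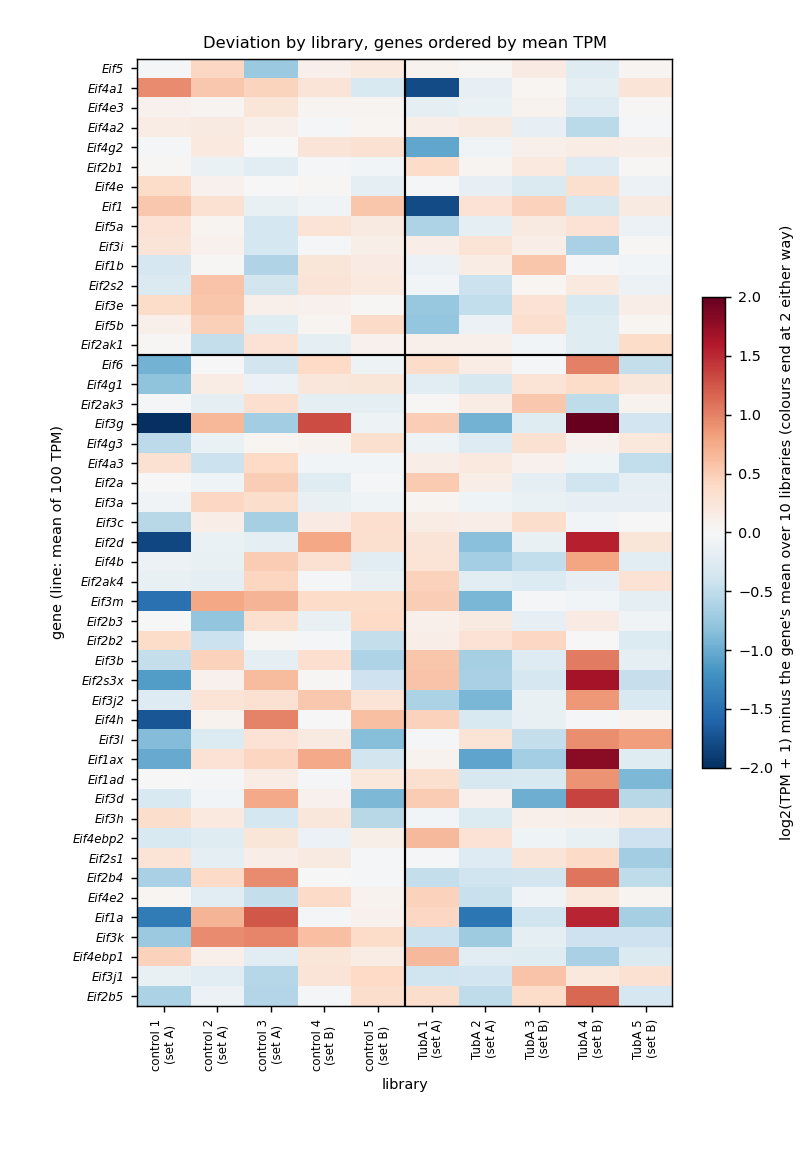
Deviation of each library (columns) from the mean of the gene over 10 libraries, in log2(TPM + 1), for the 48 genes tested (rows, ordered by mean TPM), with red above and blue below the mean and colours ending at 2 log2 units either way. Above the line at 100 TPM the column of TubA replicate 1 holds the lowest value in 6 of 15 genes, and below it TubA replicate 4 holds the highest in 16 of 33.

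Shares within paralog families were compared because they cancel changes common to a family. Eif4a1 made up 60.6 ± 6.83% in the controls and 51.5 ± 15.4% under TubA of Eif4a1 plus Eif4a2 (exact two-sided permutation p = 0.26, 0.52 when adjusted over 6 shares). TubA replicate 1 had 25.2%, and without it the difference of -9.13 points became -2.56 points. It was -26.6 points within set A and 5.46 points within set B, and -0.94 points with protein-coding transcripts only. The last setting drops Eif4a2-210, the model with 509 of the 536 TPM of Eif4a2. Little of Eif4a2 is then left in the share, so its difference is not comparable with the others. The share of Eif4g1 among the eIF4G genes was 10.3 ± 1.78% in the controls and 13.1 ± 2.72% under TubA (exact two-sided permutation p = 0.071, adjusted p = 0.26). Control replicate 1 had the lowest share, 7.17%, and TubA replicate 1 the highest, 17.4%. Eif4ebp1 made up 28.4 ± 8.84% in the controls and 19.2 ± 6.102% under TubA of the eIF4E-binding proteins (exact two-sided permutation p = 0.087, adjusted p = 0.26). The share of Eif4e among the eIF4E genes was 36.7 ± 3.54% in the controls and 38.1 ± 5.68% under TubA (exact two-sided permutation p = 0.67, adjusted p = 0.80). The level of this share depends on the transcript length used. Scaled to the length of the longest coding transcript, Eif4e had 99.8 TPM in place of 402 and Eif4e3 867 TPM in place of 669.7. The difference of the share was then 0.60 points in place of 1.34 points. Eif1ax made up 77.4 ± 13.5% in the controls and 82.1 ± 9.69% under TubA of Eif1ax plus Eif1a (exact two-sided permutation p = 0.54, adjusted p = 0.80). Eif5a made up at least 99.8% of Eif5a plus Eif5a2 in every library (exact two-sided permutation p = 0.98). No share passed after adjustment over the 6.

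Which transcript model the reads were assigned to affected the level of several leading genes. In 45 of 48 genes the model with the highest mean was annotated protein coding, and in 20 genes it held at least 90% of the TPM of the gene. Eif5-214, a model of 690 bases whose annotation is marked incomplete at its 3′ end, held 96.5% of the TPM of Eif5. The longest coding model of Eif5 has 4050 bases. Scaled to the length of the longest coding transcript, Eif5 had 401 TPM in place of 1576 and moved from rank 1 to rank 6, and Eif4a1 took rank 1 at 955 TPM. Eif4e moved from 402 to 99.8 TPM, as Eif4e-205 (729 bases, against 4991 for the longest) held 70.4%. Eif2ak3 moved from 63.2 to 27.9 TPM and Eif3c from 36.5 to 17.1 TPM by the same scaling. These shifts changed orders of level and left the TubA difference of Eif5 at 0.05 and that of Eif4e at -0.11.

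In 3 genes the leading model was annotated as a type other than protein coding. Eif4a2-210, annotated as a target of nonsense-mediated decay, held 94.9% of the TPM of Eif4a2, with 539 ± 30.7 TPM in control and 479 ± 91.3 TPM under TubA (SD, n = 5). Eif5b-202, annotated as retaining an intron, held 72.9% of Eif5b, with 136 ± 16.9 and 109 ± 29.3 TPM. The leading Eif4g1 model, of 2200 bases and annotated for nonsense-mediated decay, held 41.6% of Eif4g1. The models came from the software of the submitters and were not checked against reads. A model of Eif2b1 followed the library sets and not the treatment. Eif2b1-205, annotated as retaining an intron, had 99.8 to 147 TPM in the 5 libraries of set A and at most 19.6 TPM in those of set B. This is a description, since the sets were found from the same values.

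**Figure D4:**
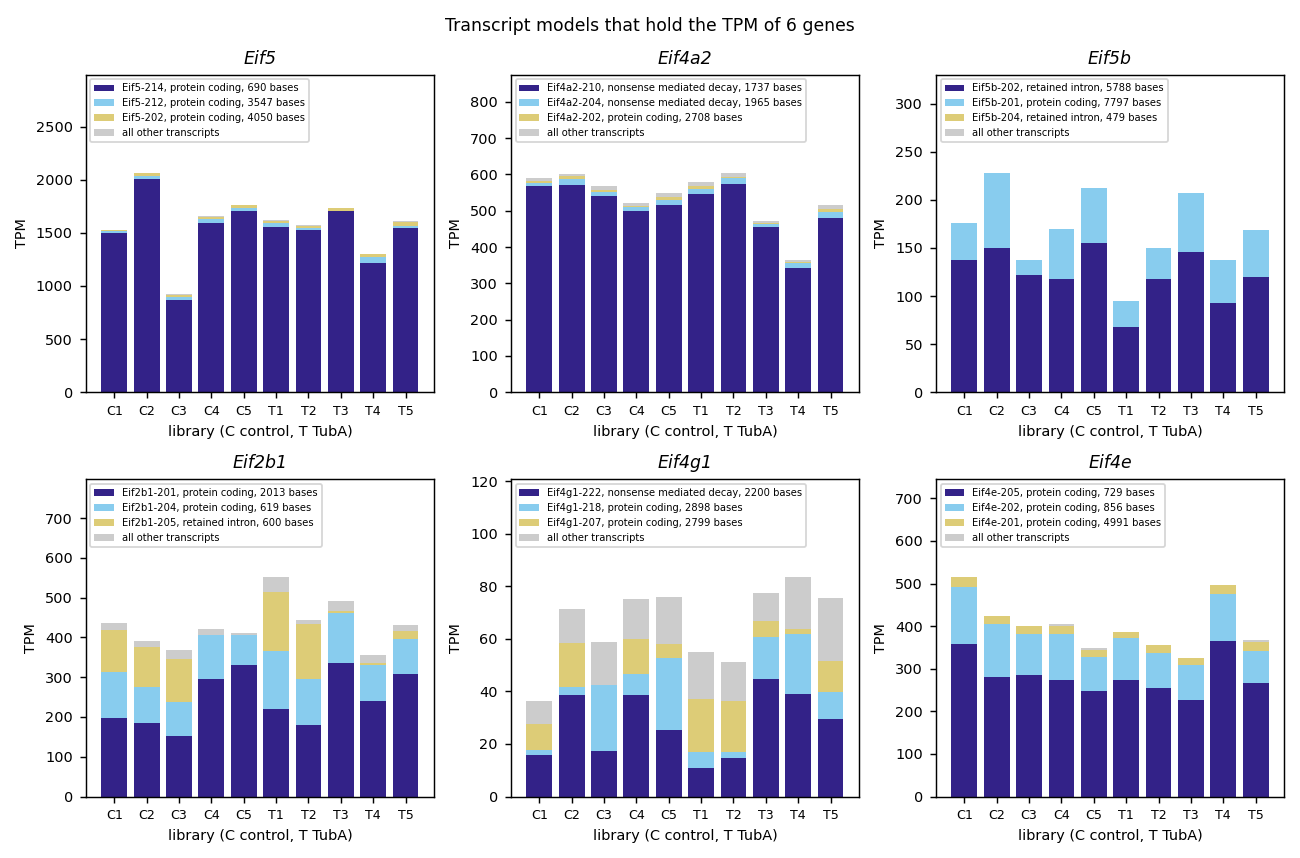
TPM of the 3 leading transcript models and of all others (stacked bars) per library (C control, T TubA, replicates 1 to 5) for Eif5, Eif4a2, Eif5b, Eif2b1, Eif4g1 and Eif4e, each panel on its own axis from 0. A single model holds most of Eif5 and Eif4a2 in every library, and Eif2b1-205 is large in C1 to C3, T1 and T2.

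Genes that act on the initiation factors or after them were counted as 4 lists, and 0 of their genes passed in either direction. In MTOR and cap-binding control, 15 of 15 genes were tested, 7 differences were negative and 8 positive, and the median was 0.0084. Its highest genes were Rheb, the GTPase that activates MTOR (789 ± 124 TPM in the controls and 732 ± 113 TPM under TubA), and Deptor, an MTOR inhibitor (412 ± 87.03 TPM in the controls and 406 ± 82.5 TPM under TubA). In the stress response through eIF2, 7 of 9 were tested, with 3 negative and 4 positive and a median of 0.0092. Dnajc3, an inhibitor of eIF2 kinases, had 215 ± 25.5 TPM in the controls and 191 ± 27.3 TPM under TubA. Atf4, the transcription factor translated when eIF2 is phosphorylated, had 100.8 ± 40.2 TPM in the controls and 157 ± 57.4 TPM under TubA, with an unadjusted p = 0.12 (limma). For elongation 9 of 12 were tested, with 3 negative and 6 positive and a median of 0.09. Eefsec, which delivers selenocysteine tRNA, had 155 ± 26.5 TPM in the controls and 206 ± 39.3 TPM under TubA (unadjusted p = 0.0502, limma), and the exchange factor gene Eef1b2 had 148 ± 24.3 TPM in the controls and 128 ± 34.7 TPM under TubA. For termination and recycling 5 of 9 were tested, with 3 negative and 2 positive and a median of -0.05. The ribosome rescue gene Hbs1l had 132 ± 20.98 TPM in the controls and 138 ± 28.1 TPM under TubA and the release factor gene Gspt2 87.4 ± 25.7 TPM in the controls and 78.4 ± 14.5 TPM under TubA. Over all genes tested the median was 0.0097, and no gene of the 4 lists had an unadjusted p under 0.05.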

How the data were processed

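Single oocytes were sequenced after Smart-seq2 amplification, 5 per group. The deposited values are TPM per Ensembl transcript, scaled by the authors to 1000000 per library. Bowtie 0.12.2 and the build mm10 are named per the submitters' processing notes. The program that estimated TPM is not given in the sources used here. Of 115270 transcripts per file, 113492 matched GENCODE M21 (GRCm38), and the rest held 0.531 to 0.753% of TPM. TPM was summed per gene. The 11664 genes averaging 1 TPM or more were tested on log2(TPM + 1), pseudocount 1, with limma 3.58.1 in R 4.3.3 (intensity trend, robust moderation, Benjamini-Hochberg adjustment). Fold changes on this scale understate those of low genes. TPM keeps no depth, so no counting interval is given, and single transcript models rest on how the authors' software divided reads. Paralog shares were tested by exact permutation (two-sided, 252 assignments). On simulated data with 11664 genes and 200 changed, the TubA test found 32.1% of 2-fold and 80.6% of 4-fold changes, with 4.55% false calls. The changed genes were drawn only above a level higher than the filter of 1 TPM. The noise was normal and independent between genes, without library sets. These rates therefore do not cover the low genes, Eif3k among them.

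Values per library were given for the 2 highest tested genes of each complex, for genes at an unadjusted p under 0.05 and for the paralogs of the shares. Values for some further genes (among them Eif3g) were chosen after they were seen. Copies are genes that hold at least 20% of a gene's 31-base words. The members, gene lists, library sets and named-gene rule were chosen with earlier results of these data known. Of the stress list, 8 of 9 symbols were matched. Alternatives were the filter, pseudocount, scaling, transcript choice, library sets, library weights, replicate block and leaving out libraries. No pair of libraries held identical values. Python 3.11.15, pandas 2.3.3, numpy 2.4.6 and matplotlib 3.10.9 were used.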

Additional observations from a re-analysis of the deposited data

Results flagged for a closer look

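In 10 of the 96 groups of 5 libraries examined (48 genes in each treatment), 1 library stood far from the other 4 by Dixon's test at its 95% critical value of 0.71. The test was run on TPM and not on the log2 scale of the fit. The nominal rate is about 1 in 20 such groups, here 4.8, but it holds for normal values. Whether TPM is normal within a group was not tested, so the count of 10 cannot be read against 4.8. The groups come from the same 10 libraries and are not independent, and the share over all genes tested was not computed. Over all genes tested, TubA replicate 4 was the highest of the 10 libraries in 21.1% and control replicate 3 in 21.5%. TubA replicate 4 was the library apart in 4 of them, each time as the highest. Eif1ax had 28.3 TPM there and 3.04 to 7.81 TPM in the other TubA libraries, and Eif2b4 had 7.07 against 1.70 to 1.97 TPM. Eif2d had 90.9 against 16.6 to 36.3 TPM, and Eif3g 179 against 21.6 to 59.7 TPM. Control replicate 3 was the highest control library in the other 4 genes with a control library apart. Eif4e3 had 791 TPM there against 689 to 709 TPM. Eif2ak3 had 78.1 against 54.4 to 60.6 TPM, Eif2ak4 43.1 against 27.8 to 31.1 TPM, and Eif2a 55.4 against 33.1 to 39.2 TPM. TubA replicate 1 was apart in 2 genes. Eif4g2 was lowest there, at 219 TPM against 426 to 498 TPM, and Eif4ebp1 highest, at 2.61 against 0.467 to 1.007 TPM.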

How the results depend on the processing

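The count of initiation factor genes past an adjusted p of 0.05 was 0 under every alternative run, and the lowest adjusted p of a named gene in any of them was 0.69 (limma). Of 749 values of 29 named genes, 743 moved by less than 1 SD, and the other 6 came from fits within a single library set (Eif3e and Eif4a1 in each set, Eif4ebp1 and Eif4ebp2 in set A). In 19 of the 29 genes the sign of the difference changed in some alternative, 48 times in all, and in 10 it never did, Eif3k among them. Over all genes, the count past the threshold went from 1 to 0 with TubA replicates 1 and 4 left out, with a 5 TPM filter on means, with protein-coding transcripts only, with the replicate number as a block and within set B. It was 12 within set A and 1 in every fit that left out a single library. The count of initiation factor genes at an unadjusted p under 0.05 went from 1 to 0 with the 5 TPM filter, with protein-coding transcripts only and within set B, and to 2 with the set as a term, with library weights and within set A. Over all genes tested the shares were 2.12%, 2.40%, 1.72%, 3.40%, 4.62% and 4.44% in that order, beside 2.51%. It ranged from 0 (without TubA replicate 2 or control replicate 2, 3 or 4) to 4 (without TubA replicate 3) with single libraries left out, and was 2 or 3 without TubA replicate 4 or 5 or control replicate 1 or 5, while the share of all genes ranged from 1.73% to 3.90% (3.15% without TubA replicate 3). The count of initiation factor genes without overlap went from 0 to 1 with TubA replicates 1 and 4 left out, 9 within set A and 6 within set B, where fewer libraries are compared and 2.72%, 18.9% and 12.7% of all genes tested had no overlap. It was 0 to 1 with single libraries left out (1 without TubA replicate 3 or control replicate 1 or 5), beside 0.696% to 1.32% of all genes. The Eif4g1 share differed by 2.76 points, by 3.85 points with protein-coding transcripts only (exact permutation p = 0.016) and by 1.69 to 3.56 points with single libraries left out (exact permutation p = 0.0079 without TubA replicate 2). Protein-coding transcripts only drops the leading Eif4g1 model, annotated for nonsense-mediated decay, with 27.5 of the 66.0 TPM of the gene. The difference of 3.85 points is therefore not comparable with the others. The Eif4ebp1 share differed by -9.24 points and by -12.3 to -6.33 points (exact permutation p = 0.032 without control replicate 3). None of these p is adjusted over the shares. The cause of these shifts was not tested. The replicate numbers were not treated as pairs in the main fit, and no label says whether they pair the samples. The correlations of same-numbered deviations were 0.0031, -0.0048, -0.31, 0.48 and 0.26. The best with another number were 0.45, 0.14, 0.28, 0.077 and 0.21, so the same number was higher only for replicates 4 and 5. The replicate block left 0 initiation factor genes past the threshold and 1 at an unadjusted p under 0.05. Leaving out both TubA replicates 1 and 4 and scaling to the longest coding transcript were chosen after seeing the data. Unknown depth limits the low genes most.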
